A study of Mus musculus with 18 samples.

Results

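Erythroid genes, a set of 36 named genes of red cell formation, were followed in female mice with an Xist deletion on one or both X chromosomes. The set held 4 adult globins, 3 embryonic globins, 6 enzymes of haem synthesis, 5 erythroid regulators, 10 genes of the red cell membrane, 2 genes of iron uptake and 6 other genes of late red cells. By symbol, 35 of the 36 genes matched a row among the 46078 rows of each deposited table, and Ahsp was not analysed here. The matched genes lie on many chromosomes, and Alas2 and Gata1 are on the X. Every animal or culture carried the deletion. Controls were heterozygous and kept an intact Xist on the other X chromosome, and mutants were homozygous, so no group was free of the deletion. The control columns of the tables are headed WT, and the labels were followed. Spleen, liver and brain were taken on postnatal day 1 and gave 2 control and 2 mutant libraries each, and primary tail-tip fibroblasts (TTFs) gave 3 and 3, for 18 libraries in all. The design text calls the replicates biological. The sources used here do not give the deleted part of Xist, the strain, the litters or whether organs with a shared number came from a shared animal.

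Red cells form from progenitors under erythropoietin signalling, which acts with the transcription factors GATA1, TAL1 and KLF1 to switch on globin, haem and membrane genes. Around birth in mice the liver is still a site of red cell formation and the spleen is taking over part of it. Adult haemoglobin pairs alpha and beta globin chains with haem, while the embryonic chains zeta (Hba-x), epsilon-y (Hbb-y) and beta-h1 (Hbb-bh1) belong mainly to the primitive red cells of the early embryo.

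Levels are on the authors' scale of scaled reads per gene, called signal here, and libraries held 12.4 M to 29.2 M reads in genes. A single read was worth a signal of 0.0343 to 0.0751, so no reads allowed a signal of up to 0.103 to 0.225, a limit of 3 reads that covers counting error only. Xist, as a check of the labels, had a lower signal in mutants than in controls in each tissue. It was 1121 to 1205 in control spleens and 51.2 to 117 in mutant spleens, and 666 to 683 against 3.62 to 4.15 in brains. In TTFs it was 70.5 to 141 against 2.33 to 13.5. Livers had 594 to 730 in controls and 178 to 257 in mutants. Mutant livers thus kept a larger part of the control signal than the other mutants did, and the source of that signal was not tested. Hepatocyte markers summed to a signal of 123319 to 153324 in the livers, neuron markers to 6491 to 7669 in the brains, and macrophage markers to 983 to 1987 in the spleens. Several libraries stood apart. Spleen mutant 1 had the fewest reads (12.4 M) but reads in the most genes, 32381, against 25166 to 26940 in the other spleens. Livers numbered 1 had reads in 28889 (control) and 27207 (mutant) genes, against 23623 and 24307 in those numbered 2. The library labelled spleen control 1 had a summed signal of proliferation markers of 7595, against 2798, 2511 and 2178 in control 2, mutant 1 and mutant 2. Spleen mutant 2 had a summed signal of exocrine pancreas markers of 7201 and spleen control 1 of 879.6, against 9.12 and 13.7 in control 2 and mutant 1. Both spleens numbered 1 carried more hepatocyte marker signal (387 and 482) than those numbered 2 (23.7 and 43.3). In liver, both libraries numbered 1 had more proliferation marker signal (1949 and 2192) than those numbered 2 (754 and 981). The part of these differences in the results below was not tested.

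The sequences just upstream of the globin genes are shown because the results turn on the contrast between adult and embryonic chains, which share short motifs of erythroid promoters. RefSeq promoter sequences (GRCm38, 250 bases before the annotated start) were found for 27 of the matched genes, with 32 promoters in all. The last 120 bases before the start are printed, 5′ to 3′ on the gene's own strand, with matches in either direction in capitals to CACCC (a box bound by KLF1 and its relatives), to CCAAT (bound by NF-Y), and to GATA words (GATAA or GATAG after an A or a T). No match overlaps another.
Hbb-bs, chr7:103827929-103828048, minus strand: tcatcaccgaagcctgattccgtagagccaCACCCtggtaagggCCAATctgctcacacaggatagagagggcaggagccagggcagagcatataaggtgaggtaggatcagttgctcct
Hbb-bt, chr7:103813924-103814043, minus strand: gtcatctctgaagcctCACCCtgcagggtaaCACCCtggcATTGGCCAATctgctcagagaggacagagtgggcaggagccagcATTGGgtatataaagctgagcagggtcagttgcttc
Hbb-y, chr7:103853208-103853327, minus strand: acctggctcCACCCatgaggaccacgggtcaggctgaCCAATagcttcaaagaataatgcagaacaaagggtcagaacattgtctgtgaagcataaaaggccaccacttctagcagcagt
Hba-a1, chr11:32283552-32283671, plus strand: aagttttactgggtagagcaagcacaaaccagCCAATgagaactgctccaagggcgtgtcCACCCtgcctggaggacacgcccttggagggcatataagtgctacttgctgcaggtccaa
Hba-x, chr11:32276480-32276599, plus strand: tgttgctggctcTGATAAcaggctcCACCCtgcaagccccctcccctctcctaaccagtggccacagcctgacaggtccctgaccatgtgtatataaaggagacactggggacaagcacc

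All 5 printed stretches hold a CACCC match, 4 hold a CCAAT match and only Hba-x holds a GATA word. Over the full 250 bases, CACCC was found in 23 of the 32 promoters (71.9%), against 52.0% of all 32851 mouse promoters of the table. CCAAT was found in 19 (59.4%), against 33.8% of all promoters. A GATA word was found in 18 (56.3%), against 26.5%, and a GATA word together with CACCC in 16 (50.0%), against 11.8%. These are letter matches and not measured binding.

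In spleen, erythroid genes read lower in the mutants than in the controls, but most of this gap came with a single control library. Of the 36 genes, 33 had a mean signal of at least 1 and were tested. Hba-x reached this minimum only through mutant 1, so its change is not given as a result. The other 32 genes all had a log2 fold change (mutant minus control) below 0, and the median over the 33 was -1.11. Over all 16578 genes tested in spleen the median was -0.07, with 56.5% below 0. With limma on log2(signal + 0.5), no erythroid gene and no gene at all passed an adjusted p of 0.05 (0% called). An unadjusted limma p under 0.05 was found for 6 of the 33 erythroid genes and for 1039 of the 16578 genes tested. edgeR's quasi-likelihood test on the recovered reads called 0 genes, with 1178 at an unadjusted p under 0.05. DESeq2 on the same reads called 174 genes (1.05%), of which 2 were erythroid, Epb42 and Kel. In 17 of the 33 genes both mutants lay below both controls (51.5%), against 21.9% of all genes, and in 0 both mutants lay above both controls, against 18.3% of all genes. In bulk tissue, fewer red cell precursors and less of these RNAs per cell cannot be told apart.

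Spleen control 1 was the highest of the 4 libraries for 31 of the 33 tested genes, while it was the highest for 40.0% of all genes. The exceptions were Hba-x and Car1. On the log2(signal + 0.5) scale the median erythroid gene was 3.13-fold higher in control 1 than in control 2, and 25 of the 33 differed by more than 1 on the log2 scale, as did 7.86% of all genes. The 2 mutants differed from each other by a median of -0.06 (mutant 1 minus mutant 2, log2). Without control 1 the median erythroid log2 fold change was -0.18, with 24 genes below 0 and 9 above. Without control 2 it was -1.90, and without mutant 1 or mutant 2 it was -1.07 or -1.01. Over all genes these medians were between -0.13 and -0.01.

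**Figure D1:**
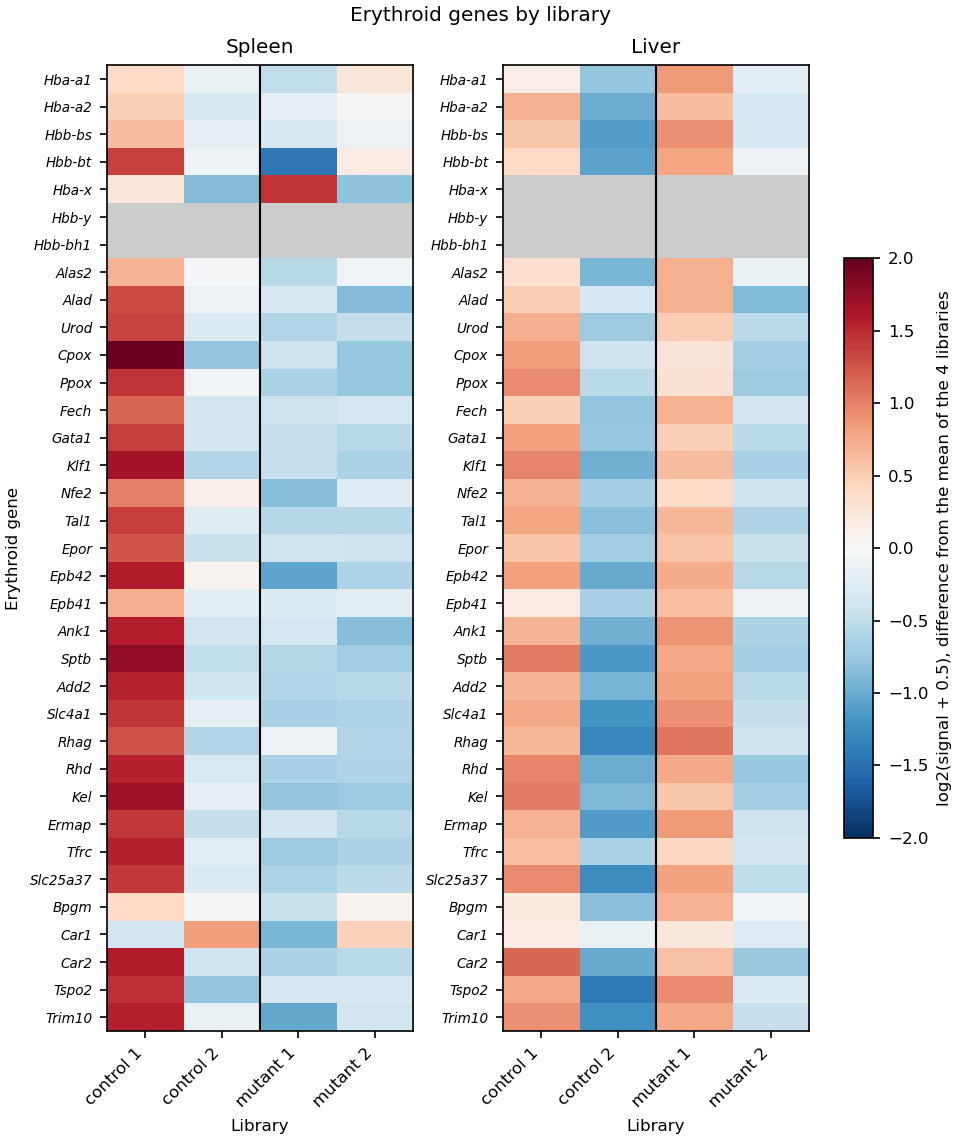
Heat map of the 35 matched erythroid genes (rows) in the 4 spleen and 4 liver libraries (columns), as log2(signal + 0.5) minus the gene's mean over the 4 libraries of the organ, with grey for genes under a mean signal of 1. In spleen the column of control 1 is the highest for 31 of 33 genes, and in liver both columns numbered 1 lie above both numbered 2 for 32 of 32.

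The adult globins, the most abundant of these transcripts, showed the smallest gap of the classes with a median below 0. Hbb-bs, the adult beta chain with the most reads (chr 7), had a signal of 19305 and 10956 in the control spleens and of 10088 and 11559 in the mutants. Hba-a1, an adult alpha chain (chr 11), had 5306 and 3705 in the controls and 2884 and 4788 in the mutants. Hba-a2, its neighbouring copy, had 2115 and 1217 in the controls and 1346 and 1549 in the mutants. For all 3, control and mutant libraries overlapped. Hbb-bt, the second adult beta chain, had 2216 and 804 in the controls and 321 and 961 in the mutants, again with overlap, and mutant 1 was lowest. The median log2 fold change of the 4 adult globins was -0.34, and none had groups that did not overlap. Reads within the pairs can be split uncertainly, since 67.5% of 50-base windows of the Hba-a1 transcript also occur in Hba-a2 and 65.8% of those of Hbb-bs also occur in Hbb-bt.

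The 6 enzymes of haem synthesis had a median log2 fold change of -1.12 in spleen, and all 6 were below 0. Alas2, the X-linked erythroid enzyme of the first step, had a signal of 1454 and 891 in the controls and 615 and 851 in the mutants, so the groups did not overlap but control 2 and mutant 2 lay close together. Ppox, the protoporphyrinogen oxidase, had 424 and 151 in the controls and 100.4 and 92.3 in the mutants, 287 ± 193 against 96.3 ± 5.78 (SD, n = 2). Cpox, the coproporphyrinogen oxidase, had 1170.3 in control 1 and 171, 222 and 175 in the others, so that only control 1 stood out. Fech, the ferrochelatase that inserts iron, had 1629 in control 1 and 549 to 574 in the other 3 libraries. Alad and Urod, 2 earlier enzymes of the pathway, had means of 561 ± 362 and 322 ± 236 in the controls and of 223 ± 58.3 and 132 ± 7.88 in the mutants (SD, n = 2). For both of these the groups did not overlap.

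The 5 regulators had a median of -1.08 in spleen. Gata1, the X-linked zinc finger factor, had a signal of 292 and 85.6 in the controls and of 81.0 and 75.1 in the mutants. Klf1, which activates adult beta globin, had 568 and 119 in the controls and 129.6 and 115 in the mutants. Control 2 thus sat beside the mutants for both genes. Nfe2, the erythroid leucine zipper factor, had 406 and 215 in the controls and 111 and 168 in the mutants, and control 2 was well above both. Tal1, a basic helix-loop-helix partner of GATA1, had 417 and 134 against 107 and 107. Epor, the erythropoietin receptor, had 278 in control 1 and 85.5 to 88.0 in the other libraries.

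Among classes of more than 2 genes, membrane genes had the widest gap, with a median of -1.22 over 10 genes, all below 0 and 6 with groups that did not overlap. Epb42, the protein 4.2 that ties band 3 to the skeleton, had a signal of 717 and 252 in the control spleens and of 115 and 157 in the mutants. Kel, a surface blood group peptidase, had 709 and 194 in the controls and 126 and 131 in the mutants. In both genes control 2 also exceeded both mutants, though by less than control 1 exceeded control 2. Slc4a1, the anion exchanger band 3, had 7538 and 2466 against 1779 and 1823. Sptb, the erythroid beta spectrin, had 3140.0 and 653 against 617 and 567, and Ank1, the ankyrin that links it to band 3, had 1847 and 482 against 487 and 346. For Ank1 control 2 lay between the mutants. Add2, a capping adducin, had 542 and 141 against 124 and 126, and Rhd, an Rh blood group protein, had 399 and 109.9 against 86.8 and 88.9. Epb41 (protein 4.1), Rhag (the Rh-associated glycoprotein) and Ermap (an erythroblast membrane protein) had groups that overlapped, with log2 fold changes of -0.49, -0.69 and -0.94.

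Both genes of iron uptake had mutants below controls, and the late genes were mixed. Tfrc, the transferrin receptor, had a signal of 1128 and 333 in the control spleens and 233 and 247 in the mutants. Slc25a37, the mitochondrial iron importer mitoferrin 1, had 2743 and 842 against 672 and 717. Trim10, an erythroid RING finger protein, had 516 and 159 against 85.7 and 134, and Car2, a carbonic anhydrase, had 2106 and 531 against 455 and 482. In each of these 4 genes both mutants lay below both controls. Tspo2, an erythroblast member of the translocator protein family, had 187 in control 1 and 39.4, 53.9 and 53.9 in the rest. Bpgm, which makes 2,3-bisphosphoglycerate, had 193 and 144 against 106 and 152. Car1, a second carbonic anhydrase, broke the pattern with 49.5 and 116 in the controls and 34.2 and 89.8 in the mutants, lower in both libraries numbered 1.

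The 6 erythroid genes with an unadjusted limma p under 0.05 in spleen did not pass adjustment over all genes, whose adjusted p in limma was 0.701 to 0.779. Epb42 had a log2 fold change of -1.66 (SE 0.51, limma adjusted p = 0.701) and Kel of -1.52 (SE 0.57, limma adjusted p = 0.763). Ppox had -1.39 (SE 0.48), Trim10 -1.41 (SE 0.56), Tfrc -1.35 (SE 0.56) and Nfe2 -1.11 (SE 0.40). DESeq2 gave Epb42 -1.79 (SE 0.46, DESeq2 adjusted p = 0.0163) and Kel -1.76 (SE 0.50, DESeq2 adjusted p = 0.0478). These 2 calls changed with the libraries: DESeq2 called no erythroid gene without control 1, mutant 1 or mutant 2, and 26 of 33 without control 2, in fits added after the calls were seen. Of all genes these fits called 0.706%, 0.35%, 0.471% and 9.31%, in the same order. The DESeq2 adjusted p of Epb42 was then 0.428 without control 1 and 4.0e-11 without control 2. With only 2 libraries a group, p-values reflect the spread between these few samples.

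**Figure D2:**
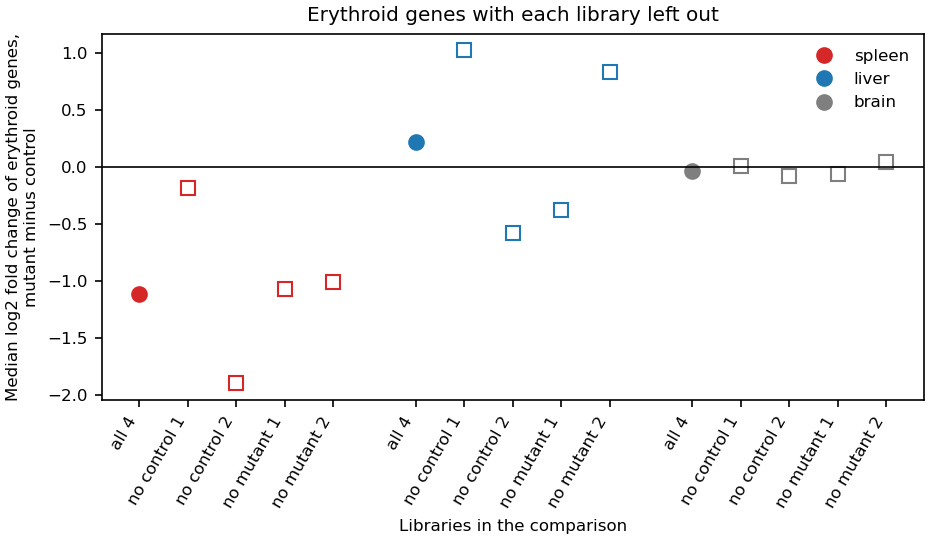
Median log2 fold change (mutant minus control) of the tested erythroid genes in spleen, liver and brain, with all 4 libraries (filled circles) and with each library left out in turn (open squares). The spleen median goes from -1.11 to -0.18 without control 1, the liver median takes values from -0.58 to 1.03, and the brain median stays within 0.1 of 0.

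Of 76 further genes of red cell biology, 72 were tested in spleen. None passed limma, and 69 had a log2 fold change below 0 with a median of -0.80, against 56.5% of all genes below 0. In 40 both mutants lay below both controls, against 21.9% of all genes. Control 1 was the highest library for 62 of the 72, against 40.0% of all genes. Tmcc2, an endoplasmic reticulum protein that accumulates in late erythroblasts, had a signal of 1817 and 792 in the controls and of 323 and 554 in the mutants. Xpo7, an exporter used in late erythroblast nuclei, had 1355 and 645 against 289 and 447. Dmtn, the actin-bundling dematin, had 846 and 211 against 141 and 131. Lyl1, a relative of TAL1, had 145 and 147 against 69.6 and 101, so its controls were alike and control 1 did not stand out. Hbq1b, an alpha-like theta globin, had 36.5 and 18.4 against 9.09 and 13.6, and Slc14a1, the red cell urea transporter, had 215 and 85.5 against 53.9 and 61.1. Both groups of each of these 6 genes were apart, and none passed limma (adjusted p 0.751 to 0.763).

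Markers of dividing cells and of other cell types also differed between the spleen libraries. In spleen, 8 of 8 proliferation markers had a log2 fold change below 0 (median -0.90), and 7 had both mutants below both controls, against 21.9% of all genes. Their summed signal was 7595 and 2798 in the controls and 2511 and 2178 in the mutants, led by Mki67, with none at 0. Fibroblast markers were all 7 above 0 (median 0.79), with sums of 2637 and 2961 in the controls and 5725 and 3387 in the mutants. Of the 6 endothelial markers 5 were above 0, with sums of 920.3 and 1417 against 1493 and 1464. The 4 neuron markers tested were above 0, with sums over the list of 10.2 and 11.4 against 30.9 and 24.0. Both mutants lay above both controls for 6 fibroblast, 4 endothelial and 4 neuron markers, against 18.3% of all genes. The 10 neutrophil markers had sums of 3848 and 11664 in the controls and 4101 and 8256 in the mutants, lower in both libraries numbered 1. All 7 megakaryocyte markers were below 0 (median -0.54), but in 0 of them were the groups apart. Their sums were 178 and 409 in the controls and 79.9 and 411 in the mutants. B cell markers had 6 below 0 and 2 above, hepatocyte markers 1 below and 7 above, and macrophage markers 4 below and 6 above. The part of these cells in the erythroid values was not tested.

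In liver, erythroid genes separated the libraries by their number and not by genotype. For 32 of 32 tested erythroid genes both libraries numbered 1 had a higher signal than both libraries numbered 2, against 17.9% of the 15075 genes tested. In no erythroid gene were the genotype groups apart, while over all genes 23.5% had both mutants higher and 13.1% both mutants lower. The median erythroid gene was 3.05-fold higher in control 1 than in control 2 and 2.34-fold higher in mutant 1 than in mutant 2. In spleen 8 of 33 erythroid genes had both libraries numbered 1 above both numbered 2, against 12.4% of all genes. The sources used here do not say whether a number marks a litter, a day or an animal.

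The median erythroid log2 fold change in liver was 0.22, with 22 genes above 0 and 10 below, against a median of 0.05 over all genes. In DESeq2 and edgeR on recovered reads the median was -0.03 and -0.01, so its sign differed between limma and the count models. It was 0.21 in limma on CPM. limma called 0 genes in liver (0%), with 1006 at an unadjusted p under 0.05, none of them erythroid. edgeR's quasi-likelihood test called 0, with 1038 at an unadjusted p under 0.05, and DESeq2 called 211 (1.4%), none of them erythroid. Leaving out control 1, control 2, mutant 1 or mutant 2 gave medians of 1.03, -0.58, -0.37 and 0.84. The 6 erythroid genes with the smallest p in liver were Bpgm, Hba-a1, Hbb-bt, Epb41, Alas2 and Tspo2, with log2 fold changes of 0.64 (SE 0.45), 0.65 (SE 0.55), 0.67 (SE 0.60), 0.48 (SE 0.44), 0.58 (SE 0.54) and 0.65 (SE 0.82). Their limma adjusted p was 0.863 to 0.934.

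Among globins, Hbb-bs had a signal of 13422 and 4196 in the control livers and of 17199 and 7195 in the mutants. Hba-a1 had 2543 and 1352 in the controls and 4191 and 2014 in the mutants, Hba-a2 had 1655 and 508 against 1541 and 792, and Hbb-bt had 897 and 327 against 1183 and 628. Each of these 4 genes had an interleaved order, with a control and a mutant high and a control and a mutant low. Alas2 had 774 and 323 in the controls and 1003 and 554 in the mutants. The other haem enzymes had the same order of numbers, with Alad at 271 and 153 against 314 and 104, Urod at 195 and 71.0 against 168 and 81.6, and Fech at 670.5 and 278 against 780.2 and 374. Cpox and Ppox, the next enzymes of the pathway after Urod, had 488 and 205 against 325 and 171, and 148 and 52.3 against 94.8 and 46.8.

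The regulators were again highest in the livers numbered 1. Gata1 had a signal of 86.9 and 28.5 in the controls and of 67.9 and 33.5 in the mutants, and Klf1 had 159 and 41.5 against 125 and 51.7. Nfe2, Tal1 and Epor had control means of 122 ± 77.6, 88.5 ± 64.0 and 50.7 ± 29.9 and mutant means of 112 ± 43.1, 86.7 ± 51.0 and 53.9 ± 26.0 (SD, n = 2). The SD exceeded the difference between genotypes for each of these 5 genes. Among membrane genes, Slc4a1 had 3080.3 and 798 in the controls and 3436 and 1306 in the mutants, Sptb had 1062 and 234 against 889.5 and 329, and Epb42 had 289 and 81.2 against 275 and 111. Epb41 had 1027 and 588 against 1398 and 845. Ank1, Add2, Rhag, Rhd, Kel and Ermap had ratios of the mutant to the control mean of 0.819 to 1.43. Slc25a37, with 1233 and 267 against 1121 and 449, had the widest gap between the control livers on the log2(signal + 0.5) scale (4.61-fold), and Tfrc had 408 and 172 against 357 and 205. Bpgm had 122 and 59.4 against 172 and 103, Trim10 had 234 and 52.6 against 210.5 and 89.8, Car2 had 846 and 189 against 570.4 and 228, and Tspo2 had 67.4 and 14.5 against 76.1 and 32.0. Car1 had the narrowest gap between libraries of a genotype, with 43.9 and 35.7 against 46.2 and 32.6.

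Of the 76 further genes, 73 were tested in liver, none passed limma, and 48 were above 0 and 25 below, with a median of 0.14. In 49 of the 73 both libraries numbered 1 lay above both numbered 2, against 17.9% of all genes. Kit, the stem cell factor receptor of early progenitors, departed from this order with a signal of 38.9 and 37.8 in the controls and of 70.8 and 52.7 in the mutants (a log2 fold change of 0.66 with an SE of 0.24, limma adjusted p = 0.733). Cat, the catalase that hepatocytes also express, had 502 and 564 against 271 and 365 (-0.76, SE 0.28, limma adjusted p = 0.737). The proliferation markers of liver had 1949 and 754 in the controls and 2192 and 981 in the mutants as summed signal, the same order as the erythroid genes. Hepatocyte markers summed to 153324 and 130671 in the controls and to 147803 and 123319 in the mutants.

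Embryonic globins were present as traces. Hba-x, Hbb-y and Hbb-bh1 together had 33 and 5 reads in the control spleens and 53 and 9 in the mutant spleens. In liver they had 67 and 12 reads in the controls and 50 and 17 in the mutants. None of the 50-base windows of these 3 transcripts occurs in another globin transcript of the set. Per 100000 globin reads, the embryonic genes took 7.86 (exact 95% interval 5.41 to 11.0) and 1.79 (0.58 to 4.17) in the control spleens, and 27.2 (20.4 to 35.6) and 2.56 (1.17 to 4.86) in the mutant spleens. In the control livers they took 23.0 (17.8 to 29.2) and 7.56 (3.90 to 13.2), and in the mutant livers 9.87 (7.32 to 13.0) and 5.49 (3.20 to 8.79). These are Clopper-Pearson intervals, which cover counting error only. In both organs and both genotypes the library numbered 1 had the larger share, with intervals that overlapped only between the mutant livers. The log2 ratio of embryonic to adult globin signal differed between genotypes (mutant minus control) by 1.15 in spleen and -0.84 in liver, against a spread within genotypes of 2.01 and 0.91, so neither exceeded its spread. On the log2(signal + 0.5) scale, embryonic signals of 0.0536 to 2.85 in these organs stand beside the 0.5 added. Averaged gene by gene on it, the difference was 0.76 in spleen and -0.76 in liver. On that scale the spleen groups overlapped (-11.91 and -12.04 in the controls against -10.27 and -12.16 in the mutants). The liver groups did not (-10.64 and -10.54 against -11.49 and -11.21). From sums, with nothing added, the liver groups overlapped (-12.09 and -13.69 against -13.31 and -14.15). These scales differ in both the averaging and the 0.5 added, and the part of each was not tested.

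**Figure D3:**
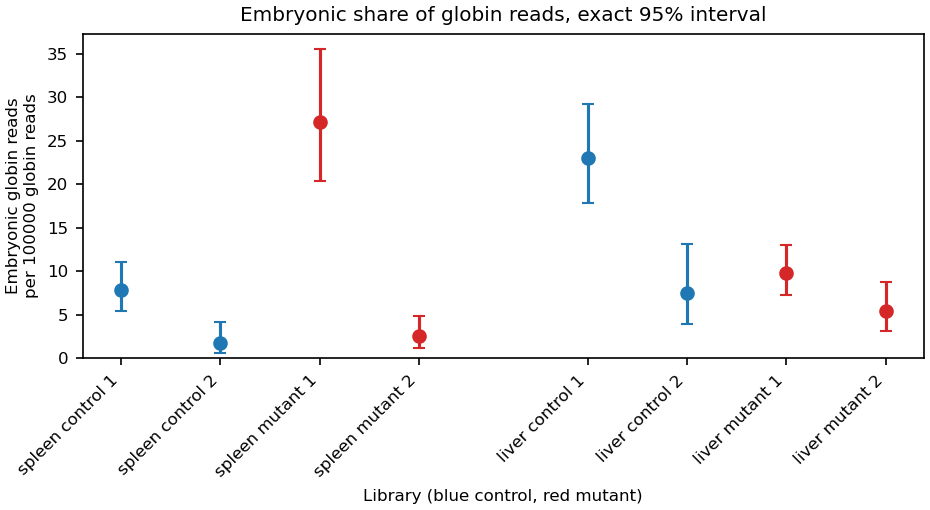
Reads of the 3 embryonic globins per 100000 globin reads in each spleen and liver library, control in blue and mutant in red, with exact 95% binomial intervals for counting error. Spleen mutant 1 (27.2) and liver control 1 (23.0) are highest, and each library numbered 1 lies above the library numbered 2 of its own genotype and organ.

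Hba-x carried most of this in spleen mutant 1, with 38 of its 53 embryonic reads, against 14 of 33 in control 1. Its signal in spleen was 0.965 and 0.179 in the controls and 2.85 and 0.214 in the mutants. It reached the minimum mean signal of 1 in spleen only through mutant 1, so its fitted change there is not given as a result. Hbb-y had 0.965 and 0.0596 in the control spleens and 0.826 and 0.214 in the mutants. Hbb-bh1 had 5 reads at most in any library. In liver Hba-x had a signal of 2.16 and 0.161 against 1.38 and 0.137, and Hbb-y had 1.84 and 0.161 against 0.857 and 0.309.

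The balance of adult chains was compared in 2 ways. The ratio of summed beta to summed alpha signal was 2.90 and 2.39 in the control spleens and 2.46 and 1.98 in the mutants, and 3.41 and 2.43 in the control livers and 3.21 and 2.79 in the mutants. In both organs control and mutant ratios of sums overlapped. Averaged gene by gene, so that the less abundant Hbb-bt weighs as much as Hbb-bs, the log2 ratio of alpha to beta in spleen was -0.97 and -0.48 in the controls and 0.13 and -0.29 in the mutants. These groups did not overlap, and the difference was 0.64, against 0.26 from sums. Hbb-bt made up 10.3% and 6.83% of the summed beta signal in the control spleens and 3.08% and 7.67% in the mutants, against 6.27% to 8.03% over the 4 livers. The labels do not give the beta-globin haplotype of the animals, on which the split of reads between Hbb-bs and Hbb-bt depends. Among the spleen and liver libraries, spleen mutant 1 thus had the lowest Hbb-bt share and the highest embryonic share. The interval of that embryonic share overlapped the interval of liver control 1.

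Brain held few erythroid transcripts beside genes, such as those of haem synthesis, that are known to be made in many cell types. Adult globins summed to a signal of 625 and 277 in the control brains and 666 and 322 in the mutants. For these sums both libraries numbered 1 were above both numbered 2. Of the 36 genes 20 were tested, with a median log2 fold change of -0.04. Both libraries numbered 1 lay above both numbered 2 for 7 of the 20, against 18.4% of all genes. The reverse held for 3, against 19.6% of all genes. limma called 4 of 16909 genes (0.0237%), as did edgeR, none of them erythroid, and DESeq2 called 41 (0.242%), also none of them erythroid. In 3 of the 20 both mutants lay below both controls (15%), against 16.3% of all genes. These were Slc25a37, Sptb and Urod (11.9 and 13.9 against 11.8 and 11.5). Slc25a37 had a signal of 18.2 and 11.0 against 9.95 and 8.51 (a log2 fold change of -0.59 with an SE of 0.24, limma adjusted p = 1.00), and Sptb had 119 and 123 against 108 and 101 (-0.21, SE 0.10). No erythroid gene had both mutants above both controls, against 13.8% of all genes. Gata1 had at most 1 read in any brain library and Car1 had none.

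Fibroblasts, which make no haemoglobin, served as a floor. Of the adult globins a single read was counted over the 6 TTF libraries, and Gata1 and Kel had no read in any. The 10 genes tested were those with roles outside red cells, such as Fech with a signal of 86.1 to 92.7 in the controls and 87.2 to 96.9 in the mutants. Slc25a37 had 34.8 to 53.9 in the controls and 33.2 to 35.8 in the mutants, and Epb41 had 22.4 to 37.6 against 31.6 to 49.1, both with overlap. The median of the 10 was -0.02. limma and edgeR called 0 of 13077 genes (0%), with 127 and 133 at an unadjusted p under 0.05, and DESeq2 called 3 (0.023%), none of them erythroid. In 0 of the 10 were the groups apart, against 2.07% of all genes with mutants higher and 1.65% with mutants lower.

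Length was taken over all annotated exons of a gene, so genes with exons unused here can read low per kb. Per kb of exon, Hbb-bs led in control spleens with a mean of 19701 per kb, followed by Hba-a1 (5548), Hba-a2 (2498), Hbb-bt (2148) and Slc4a1 (1023). The next were Car2 (544), Alas2 (488), Alad (299.6) and Slc25a37 (298). The 2 control libraries of Hbb-bs lay above those of Hba-a1, and those of Hba-a1 above those of Hba-a2, while each later pair of neighbours in this order overlapped. The order of the adult globins also depends on how shared reads were split. Of 50-base windows, 86.9% of Hba-a2 also occur in Hba-a1 and 58.3% of Hbb-bt in Hbb-bs. In control livers the first 4 were the same genes in the same order, at 11470.0, 2399, 1622 and 871 per kb, and Slc4a1 followed at 396. The regulators were lower, with Klf1 at 224 and Gata1 at 77.4 per kb in control spleens and 65.5 and 23.7 in control livers. The embryonic chains were at 0.330 to 0.809 per kb in spleen and 0.339 to 1.58 in liver.

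**Figure D4:**
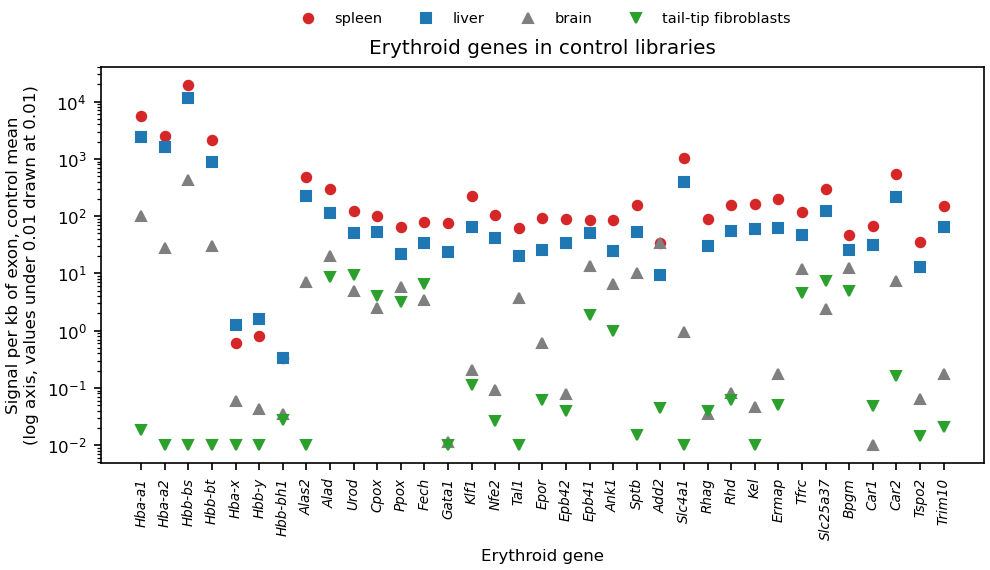
Mean signal per kb of exon of each matched erythroid gene in the control libraries of spleen, liver, brain and tail-tip fibroblasts, on a log axis with values under 0.01 drawn at 0.01. Adult globins lead in spleen (Hbb-bs at 19701) and liver (11470.0), and the 3 embryonic globins lie below 2 in every tissue.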

How the data were processed

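Per the labels' protocols, Trizol RNA was cleared of ribosomal RNA (RiboMinus) before library preparation, and read length was 50 nt. The design text names heart where labels and tables give brain. HTSeq 0.6.1, edgeR and GRCm38 are named in the submitters' processing notes. The sources used here do not give the aligner, annotation release or strand setting. The authors deposited a signal per gene (scaled counts) in 4 tables, each scaled alone. In each library 100% of nonzero values were whole multiples of 1 read at a tolerance of 0.05, so reads were recovered. Rows were matched to GENCODE mouse release 21, and 849 unmatched identifiers (up to 0.179% of a library's reads) were left out.

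The main test, run separately for each tissue, was limma 3.58.1 (R 4.3.3, trended empirical Bayes) on log2(signal + 0.5), two-sided. Genes entered with a mean over the table of 1 or more, and p-values were adjusted over all of them by Benjamini-Hochberg (threshold 0.05). This was the design planned for scaled values. edgeR 4.0.16 (quasi-likelihood) and DESeq2 1.42.0 were run on recovered reads as alternatives. Other pseudocounts, filters, scalings, a replicate block and leaving out each library were also tried. The code was tested on simulated data. Fold changes on the log2(signal + 0.5) scale understate changes of low genes.

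The genes and lists were chosen with earlier results of these data known, so their counts are descriptions. Every matched gene was described. Full statistics are given for those with an unadjusted p under 0.05 in a tissue, or otherwise for the 6 with the smallest p, in part as ranges. The rule for further lists was up to 2 genes per list and tissue by smallest p, and only some of these are named. Promoters came from RefSeq (GRCm38.p6).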

Additional observations from a re-analysis of the deposited data

How the results depend on the processing

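Other pseudocounts, a higher minimum and scaling to all reads or to reads outside the erythroid genes changed no called count of erythroid genes and kept the sign of their median in each tissue, while DESeq2 and edgeR turned it in liver (-0.03 and -0.01) and in fibroblasts (0.04 and 0.04); with no filter on low values limma called 22 genes in spleen, 11 in liver and 13 in brain. DESeq2 called 3 genes in fibroblasts, 174 in spleen (2 erythroid), 211 in liver and 41 in brain. With the replicate number as a block, limma called 356 of 16578 genes in spleen and 60 of 15075 in liver. The erythroid genes called in spleen under the block, 4 of 33, were Epb42, Kel, Trim10 and Ppox (limma adjusted p 0.00458, 0.0125, 0.0221 and 0.0231). With 2 libraries a group, block and genotype together leave little from which to estimate each gene's spread. The numbers were not taken as a pairing: deviations of same-numbered libraries correlated over genes at 0.58 in liver, -0.03 in spleen, 0.08 in brain and -0.08, 0.43 and 0.02 in fibroblasts. Averaging log2 values gene by gene gave an alpha to beta difference of 0.64 in spleen, against 0.26 from sums, with groups that then did not overlap.

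Leaving out each library gave limma 0 to 173 genes in spleen (170 without mutant 1, 173 without mutant 2) and 6 to 112 in brain, with 0 in fibroblasts and liver and no erythroid gene. DESeq2 called 117, 1544, 58 and 78 genes in spleen without control 1, control 2, mutant 1 and mutant 2, with 26 erythroid genes without control 2 and 0 otherwise. Erythroid medians ranged from -1.90 to -0.18 in spleen, -0.58 to 1.03 in liver, -0.08 to 0.04 in brain and -0.03 to 0.02 in fibroblasts. The embryonic to adult difference ranged from -0.55 to 2.86 in spleen, -1.64 to -0.04 in liver and -0.54 to 0.95 in brain, and the alpha to beta difference from 0.10 to 0.41, -0.30 to 0.19 and -0.32 to 0.51. The 6 spleen genes picked for an unadjusted limma p under 0.05 stayed below 0. Epb42 ranged from -2.41 to -0.91, Nfe2 from -1.57 to -0.66 and Ppox from -2.13 to -0.64. Kel ranged from -2.46 to -0.59, Trim10 from -2.26 to -0.56 and Tfrc from -2.23 to -0.47. In liver Hbb-bt ranged from -0.058 to 1.40, Alas2 from -0.055 to 1.21 and Tspo2 from -0.44 to 1.74, each turning without control 2. In brain Ank1 ranged from -0.067 to 0.37 (turning without control 1), Alad from -0.42 to 0.018 and Hba-a2 from -0.22 to 0.81 (without control 2), and Epb41 from -0.0032 to 0.31 (without mutant 1). The cause of these changes was not tested. A lone library left in a group is assumed to vary like the other group. With 2 libraries a group, a shift carried by a single animal cannot be told apart from one of genotype.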

Other observations

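Of 10 further genes of iron handling tested in liver, 6 had a log2 fold change below 0 and 4 above (median -0.38). None passed limma. In 4 both mutants lay below both controls, against 13.1% of all genes, and in 3 above, against 23.5% of all genes. The 2 with the smallest p went in opposite directions. Hamp, which encodes the hormone hepcidin that blocks iron export, had a signal of 0.509 and 33.2 in the control livers and of 63.9 and 104 in the mutants. Both mutants were above both controls, with a log2 fold change of 3.82 (SE 1.63) and a limma adjusted p of 0.778, and control 1 was far below the other 3 libraries. Steap3, a reductase of transferrin-delivered iron, had 126 and 105 in the control livers and 58.9 and 85.8 in the mutants (-0.69, SE 0.28, limma adjusted p = 0.751).

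In brain, Slc2a1, the glucose transporter of red cells and of the blood-brain barrier, had a signal of 54.1 and 60.2 in the controls and of 123 and 81.9 in the mutants, with a log2 fold change of 0.81 (SE 0.18, limma adjusted p = 0.503).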
